A study of Homo sapiens with 4 samples.

Results

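The semaphorins, their plexin receptors, and the neuropilin co-receptors were examined in TPC1 cells treated with the RET inhibitor BLU6864. The members were the protein-coding genes whose symbol starts with SEMA and a digit or with PLXN and a letter from A to D, or is NRP1 or NRP2. This gave 30 of 20372 genes, of which 19 were semaphorins, 9 plexins, and 2 neuropilins. The human cell line TPC1 comes from a papillary thyroid carcinoma and expresses a CCDC6-RET fusion, and a single line models 1 tumor. Total RNA was sequenced in 2 libraries of cells given BLU6864 for 6 h and in 2 libraries of cells given it for 24 h, and both groups were grown in the same serum-containing medium. The 24 h libraries are marked as a re-analysis in their titles, and the 6 h libraries are not. The dose is 100 µM in the labels and the same figure in nM in the methods. The labels do not say that the replicates came from separate cultures, so P values measure the spread between these libraries, which may be technical. Vehicle-treated libraries were not analysed here, so hours of inhibition and hours in culture cannot be told apart. The re-analysis mark follows time, so time and whatever the mark stands for cannot be told apart either.

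Semaphorins are secreted or membrane-bound guidance proteins first known for steering axons, and they also act in blood vessels, immune cells, and tumors. They bind plexins, whose cytoplasmic part acts on Rap and R-Ras GTPases and, in the B class, recruits guanine nucleotide exchange factors. Most secreted class 3 semaphorins bind plexins through a neuropilin, and neuropilins also bind vascular endothelial growth factors (VEGFs) beside the VEGF receptors.

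Library totals ranged from 23917056 to 27457040 counts, and 12876 genes passed the filter on low counts. The thyroid transcription factor PAX8 had 19124 to 22978 counts in every library, whereas the thyroid markers TSHR and NKX2-1 had 0. Thyroglobulin (TG) had 186 and 245 counts at 6 h and 98 and 111 at 24 h, and FOXE1 had 273 and 279 at 6 h and 462 and 556 at 24 h. Among epithelial markers, KRT8 (1720 to 1811 counts) and KRT18 (856 to 1185) did not pass the cutoffs described below, KRT7 rose (log2 fold change 0.84), and KRT19 fell (-1.59). EPCAM and CDH1 had at most 11 and 8 counts. Some of the listed markers of other cells were at or near 0, with at most 1 count of CDH5, CD3E, and DCN. PTPRC had at most 5 counts, and COL1A2 and STMN2 had 0. LUM, VWF, SYT1, SNAP25, and RBFOX3 had 3 to 71 counts. Of these, LUM rose (log2 fold change 0.75), as did RBFOX3 (6 and 4 counts at 6 h, 22 and 19 at 24 h), and VWF, SYT1, and SNAP25 fell (log2 fold changes -1.77, -1.13, and -1.76). CD68 (2592 to 4784), COL1A1 (63 to 237), and PDGFRB (111 to 373) were present and fell between 6 and 24 h, as did KDR, which is described with the receptor partners. Their part in the results was not tested. In bulk RNA, fewer cells of a type and less RNA per cell cannot be told apart.

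Of the 30 members, 27 were tested. Between 6 and 24 h, 7 rose and 4 fell past the cutoffs, which are the study's applied in both directions (log2 fold change beyond 0.5 in either direction with unadjusted P below 0.01, edgeR quasi-likelihood test). PLXNB1, PLXNB2, PLXNA3, NRP1, SEMA4D, SEMA4A, and SEMA5A rose, and NRP2, SEMA4B, PLXNA4, and SEMA3A fell. The 7 that rose were 25.9% of the members tested, and 17.4% of all genes tested rose past the same cutoffs. The 4 that fell were 14.8% of the members, beside 17.7% of all genes. Higher and lower together, 40.7% of the members and 35.1% of all genes tested passed. The median log2 fold change was -0.08 over the members (0.10 without 24 h replicate 1) and 0.003 over all genes tested, and the median absolute value was 0.41 and 0.37. The pair of 24 h values lay wholly above the 6 h pair for 8 of the 27 members tested, wholly below it for 10, and overlapped for 9. Of all genes tested, 41.0% lay wholly above and 40.8% wholly below, so the members were separated less often. In the share past the cutoffs in either direction and in the median change, the members as a list stood close to the background. Changes in both directions were found within each receptor type and within the class 4 semaphorins.

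**Figure D1:**
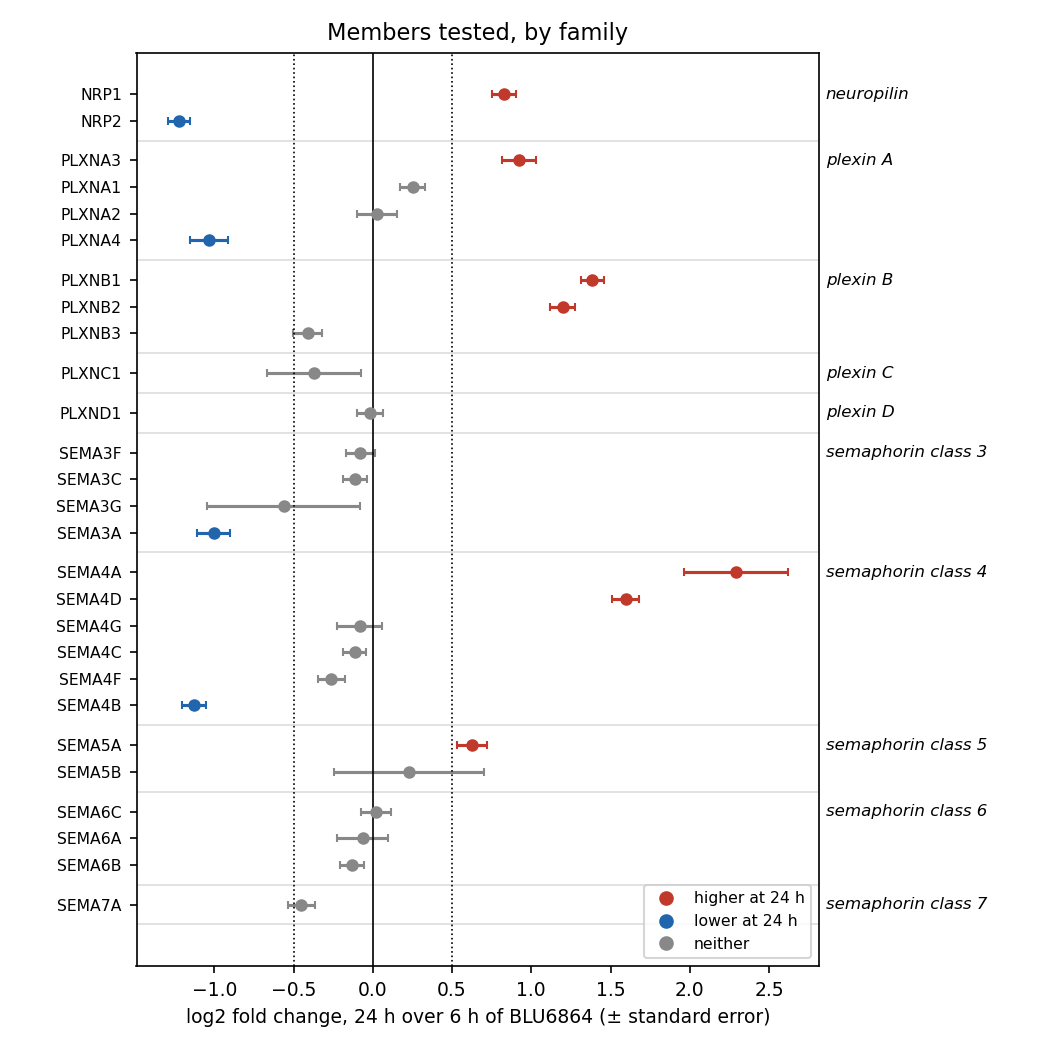
Log2 fold change of the normalized count, 24 h over 6 h of BLU6864 (x axis), for the 27 members tested, by family (y axis); bars are standard errors, dotted lines the fold cutoff, red and blue points the members higher or lower past the cutoffs. NRP1 lies at 0.83 and NRP2 at -1.22, and class 4 runs from SEMA4B at -1.13 to SEMA4A at 2.29.

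The bases upstream of the RefSeq start are shown for the 4 members past the cutoffs that have a single start in the RefSeq table and at most 1 base of annotated exon in this stretch. This start was not compared with the gene ends of the deposited table, which are in hg19, and may lie inside the gene given there. The windows held 250 bases before the start, read 5′ to 3′ on the strand of the gene in GRCh38.p14. They lie at chr2:205682251-205682500 (NRP2, plus strand), chrX:154458031-154458280 (PLXNA3, plus strand), chr22:50301670-50301919 (PLXNB2, minus strand), and chr9:89495657-89495906 (SEMA4D, minus strand). Capitals mark GC boxes (GGGCGG, or CCGCCC on the other strand) and, in SEMA4D, the E-box CACGTG.
NRP2: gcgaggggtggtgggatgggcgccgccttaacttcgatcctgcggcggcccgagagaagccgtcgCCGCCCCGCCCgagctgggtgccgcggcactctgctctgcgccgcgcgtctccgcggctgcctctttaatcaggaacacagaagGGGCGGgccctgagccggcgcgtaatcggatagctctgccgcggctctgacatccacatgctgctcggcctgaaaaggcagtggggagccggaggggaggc
PLXNA3: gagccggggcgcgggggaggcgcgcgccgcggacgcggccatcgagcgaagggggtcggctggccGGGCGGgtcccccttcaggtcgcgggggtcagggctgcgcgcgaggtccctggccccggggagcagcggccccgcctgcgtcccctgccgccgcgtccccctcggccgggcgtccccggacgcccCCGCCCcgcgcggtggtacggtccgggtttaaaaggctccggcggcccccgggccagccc
PLXNB2: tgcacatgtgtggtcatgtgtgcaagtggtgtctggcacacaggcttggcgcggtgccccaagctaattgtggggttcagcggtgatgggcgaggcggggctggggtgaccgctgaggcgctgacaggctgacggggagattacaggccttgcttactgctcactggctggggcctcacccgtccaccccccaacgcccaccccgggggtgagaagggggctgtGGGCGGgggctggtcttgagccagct
SEMA4D: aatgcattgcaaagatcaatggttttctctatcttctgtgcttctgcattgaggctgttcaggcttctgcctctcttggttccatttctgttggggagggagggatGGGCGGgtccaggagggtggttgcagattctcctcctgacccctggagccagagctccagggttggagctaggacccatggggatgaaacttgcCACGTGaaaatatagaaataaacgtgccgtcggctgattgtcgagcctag

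NRP2, which fell, and PLXNA3, PLXNB2, and SEMA4D, which rose, all had a GC box upstream of the start, and 2 GC boxes of NRP2 overlapped. In 300 base windows (250 before and 50 after the start), 26 of 30 members had an entry, with 43 windows in all, and NRP1, SEMA3A, SEMA6A, and SEMA6B had none. A GC box was found in 28 of 43 member windows (65.1%) and in 45.0% of all 35116 windows. The median GC content was 65.7% over the member windows and 58.7% over all windows. Of members with an entry, the GC box was present in all 6 that rose, in 2 of 3 that fell, and in all 14 that did neither. Among the 3 not tested, it was present in 1. A gene was counted if any of its windows had a match. With the box in nearly all tested members, its presence could hardly separate the groups. The E-box was in SEMA4D, SEMA3E, and SEMA6D (6.98% of member windows, 7.26% of all), and the ETS motif CCGGAAG was in PLXNB1 and SEMA4B (6.98% and 10.3%). CCAAT was in 25.6% of member windows and 34.6% of all windows. The cAMP response element TGACGTCA was in SEMA4C alone among the members (2.33% of member windows, 1.85% of all). TATAAA was in SEMA3E alone (2.33% and 11.5%). The AP-1 motif TGACTCA was in 0 of 43 member windows and 4.95% of all windows. Both strands were searched, and a match is a run of letters and not a shown binding site.

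The neuropilins moved in opposite directions. NRP1 (chr10:33466420-33625190, hg19) is a co-receptor of class 3 semaphorins, with SEMA3A as its best known ligand, and of VEGFA. Its normalized counts were 4379.6 and 4089.9 at 6 h and 7051 and 7954 at 24 h. The 24 h values lay above the 6 h values without overlap, and the log2 fold change was 0.83 ± 0.076 (SE, n = 2 libraries per time point, edgeR adjusted P = 3.96e-10). NRP2 (chr2:206546714-206662857) is the co-receptor for SEMA3F and for VEGFC in lymphatic vessels. It had 5429 and 5558 normalized counts at 6 h and 2350.25 and 2352 at 24 h, and the groups were separate, the log2 fold change being -1.22 ± 0.071 (edgeR adjusted P = 2.67e-14). A ratio within a library does not depend on the scaling between libraries. Per kilobase of transcript, the ratio of NRP2 to NRP1 was 1.09 and 1.20 at 6 h and 0.294 and 0.261 at 24 h. NRP1 thus made up 47.7% and 45.5% of neuropilin reads per kilobase at 6 h and 77.3% and 79.3% at 24 h. Scaled also by library size (RPKM), the sum of both was 59.6 and 58.5 at 6 h and 59.3 and 65.2 at 24 h, so it overlapped between the time points while its makeup did not.

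All 9 plexins were tested, and 3 rose and 1 fell (33.3% and 11.1%, beside 17.4% and 17.7% of all genes tested). The largest rises were those of PLXNB1 and PLXNB2, receptors of class 4 semaphorins. PLXNB1 (chr3:48445261-48471594) encodes the receptor of SEMA4D and had 863 and 881 normalized counts at 6 h and 2214 and 2340.4 at 24 h. This was a 2.61-fold rise (log2 fold change 1.39 ± 0.073, edgeR adjusted P = 3.4e-15). PLXNB2 (chr22:50713408-50746056) encodes a receptor of SEMA4C and other class 4 semaphorins and had 5318 and 5426 normalized counts at 6 h. At 24 h it had 11502 and 13158, and the log2 fold change was 1.20 ± 0.079 (edgeR adjusted P = 3.8e-13). For both genes, the higher 24 h libraries did not overlap with the 6 h libraries. PLXNB3 (chrX:153029651-153044801), the receptor of SEMA5A, was instead below its 6 h level in both 24 h libraries. Its normalized counts were 636 and 697 at 6 h and 477 and 526 at 24 h. The log2 fold change of -0.41 ± 0.091 had an edgeR adjusted P of 3.17e-04 and did not reach the fold cutoff. PLXNB3 overlaps SRPK3 in the table, which had 10 to 26 counts.

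Class A plexins pair with neuropilins to receive class 3 semaphorins, and PLXNA2 and PLXNA4 also bind class 6 semaphorins directly. PLXNA3 (chrX:153686621-153701989) had 242 and 272 normalized counts at 6 h and 446 and 528 at 24 h. The groups were separate, and the log2 fold change was 0.92 ± 0.109 (edgeR adjusted P = 3.9e-08). PLXNA4 (chr7:131808091-132333447) went the other way, from 518 and 579 at 6 h to 221 and 314 at 24 h. The log2 fold change was -1.04 ± 0.120 (edgeR adjusted P = 2.54e-08), and its 24 h libraries were farther apart than its 6 h libraries. The ratio of PLXNA3 to PLXNA4 per kilobase was 0.591 and 0.593 at 6 h and 2.56 and 2.13 at 24 h, so the more abundant of the pair was PLXNA4 at 6 h and PLXNA3 at 24 h. PLXNA1 was the most abundant of class A per kilobase at both times, with 68.7% to 72.7% of the class. It was above its 6 h level in both 24 h libraries, but the log2 fold change of 0.25 (edgeR adjusted P = 0.00626) was under the fold cutoff. PLXNA2 had a log2 fold change of 0.03, with overlapping groups. PLXND1, a receptor of SEMA3E in blood vessels, had a value of -0.02, also with overlapping groups. PLXNC1, the receptor of SEMA7A, had 29 and 35 raw counts at 6 h and 30 and 21 at 24 h, and its log2 fold change of -0.37 had a 95% interval of -0.95 to 0.21. PLXNC1 overlaps CCDC41, which had 184 to 318 counts.

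**Figure D2:**
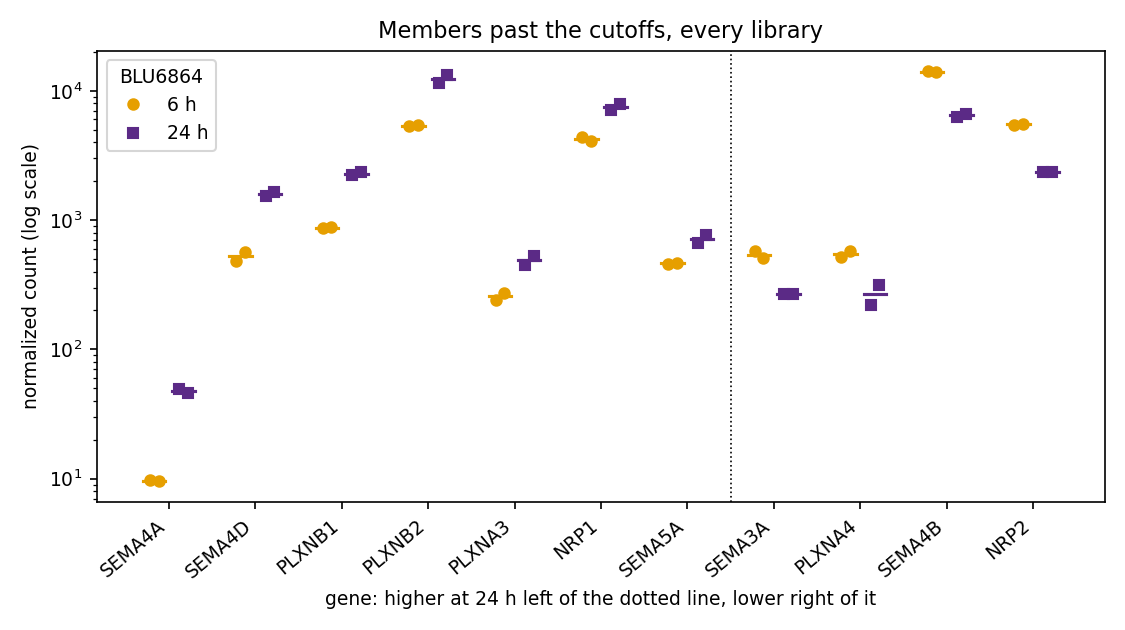
Normalized count in every library (y axis, log scale) of the 11 members past the cutoffs (x axis), for 6 h (circles) and 24 h (squares) of BLU6864, with lines at the mean of 2 libraries. The time points do not overlap for any of these genes, which were chosen for their difference between these same libraries. Among all genes tested, 41.0% lay wholly above and 40.8% wholly below at 24 h. The levels run from 9.59 (SEMA4A, 6 h) to 14169.7 (SEMA4B, 6 h).

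Of the 19 semaphorins, 16 were tested, and 3 rose and 2 fell (18.75% and 12.5%, beside 17.4% and 17.7% of all genes tested). The class 4 semaphorins are membrane-bound and can be shed from the cell surface, and all 6 were tested. SEMA4D (chr9:91975702-92113045), also known as CD100, is the ligand of PLXNB1. Its normalized counts were 485 and 565 at 6 h and 1545 and 1637 at 24 h. This 3.02-fold rise left no overlap between the groups (log2 fold change 1.60 ± 0.084, edgeR adjusted P = 3.56e-15). SEMA4B (chr15:90703836-90772911) was the most abundant semaphorin per kilobase at both times and had 14169.7 and 14032 normalized counts at 6 h. At 24 h it had 6258 and 6668 (log2 fold change -1.13 ± 0.076, edgeR adjusted P = 5.87e-13). SEMA4D and SEMA4B thus moved in opposite directions within their class, and their ratio per kilobase was 0.0228 and 0.0268 at 6 h and 0.164 and 0.163 at 24 h. SEMA4A (chr1:156117157-156147543), known from T cells and the retina, had only 9 and 10 raw counts at 6 h and 50 and 47 at 24 h. The log2 fold change was 2.29 ± 0.328 (edgeR adjusted P = 8.74e-07), the largest and least precise of those past the cutoffs, and it was not tested when a minimum of 10 counts per library was set.

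Among the rest of class 4, SEMA4F was below its 6 h level in both 24 h libraries, with log2 fold change at -0.26 and edgeR adjusted P at 0.00924, under the fold cutoff. SEMA4C, a ligand of PLXNB2, had a log2 fold change of -0.11 with a 95% interval of -0.25 to 0.02. SEMA4G had -0.08 with overlapping groups. It overlaps MRPL43, which had 2188 to 2659 counts beside 152 to 212 of SEMA4G, and since the sources used here do not give the counting program or its strand setting, the reads of this pair are uncertain.

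The secreted class 3 semaphorins are the neuropilin ligands, and of 6 members 4 were tested and 1 fell (25.0%, beside 17.7% of all genes). SEMA3A (chr7:83585093-84122040), which repels growing axons through NRP1 and a class A plexin, had 576 and 507 normalized counts at 6 h. At 24 h it had 270.0 and 269, below both 6 h libraries, and the log2 fold change was -1.01 ± 0.102 (edgeR adjusted P = 2.45e-09). The fall of SEMA3A stood beside the rise of its co-receptor NRP1. SEMA3C was the most abundant of the class, with 77.0% to 80.5% of its reads per kilobase, and its log2 fold change of -0.11 had a 95% interval of -0.26 to 0.03. The ratio of SEMA3C to SEMA3A per kilobase was 12.6 in both 6 h libraries and 23.0 and 23.8 at 24 h. SEMA3F, the NRP2 ligand, had a log2 fold change of -0.08 with overlapping groups. SEMA3G had 6 to 12 raw counts, and its log2 fold change of -0.56 had an interval of -1.51 to 0.38. SEMA3E had 2 and 5 raw counts at 6 h and 3 and 5 at 24 h and was not tested. SEMA3D had 0 counts in both 6 h libraries, which allows up to 3 per library, and 0 and 1 at 24 h.

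SEMA5A (chr5:9035138-9546187) carries thrombospondin repeats that mark its class. It had 458 and 466 normalized counts at 6 h and 659.5 and 767 at 24 h. The groups were separate, and the log2 fold change of 0.63 ± 0.093 (edgeR adjusted P = 1.63e-06) was the smallest among the members that rose. SEMA5B had 8 to 15 raw counts and a log2 fold change of 0.23 with an interval of -0.70 to 1.16. Within the transmembrane class 6, SEMA6A, SEMA6B, and SEMA6C had log2 fold changes of -0.06, -0.13, and 0.02, all with overlapping groups, and SEMA6D had 1 count in 1 of the 4 libraries. SEMA7A, the membrane-anchored ligand of PLXNC1, had 791 and 803 normalized counts at 6 h and 602 and 563 at 24 h. The log2 fold change was -0.45 ± 0.085 (edgeR adjusted P = 4.29e-05), under the fold cutoff.

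Levels were compared between genes as RPKM, the reads per kilobase of the longest protein-coding transcript scaled by library size. Which transcript the cells expressed was not examined, so the order of genes at near levels, here and in the ratios above, is uncertain. By RPKM, SEMA4B was first of the 30 members at 6 h, with a mean of 143, and fell to 65.3 and to the second rank at 24 h. PLXNB2 rose from a mean of 32.0, close to those of SEMA3C (32.1) and NRP2 (31.5), to 73.6 and the first rank. The sum over the plexins was 55.7 and 58.2 at 6 h and 99.2 and 113 at 24 h, and PLXNB2 made up 56.9% and 55.7% of it at 6 h and 69.2% and 69.5% at 24 h. The sum over the semaphorins was 264 and 260.4 at 6 h and 175 and 188 at 24 h. SEMA4B made up 54.4% and 54.5% of that sum at 6 h and 36.2% and 35.9% at 24 h, and SEMA4D went from 1.24% and 1.46% to 5.94% and 5.86%. The plexin sum was higher and the semaphorin sum lower at 24 h, each without overlap. Without SEMA4B, the sum over the other 18 semaphorins was 120.3 and 119 at 6 h and 112 and 121 at 24 h, which overlapped, so the lower semaphorin sum rested on SEMA4B. Without PLXNB2, the sum over the other 8 plexins was 24.0 and 25.8 at 6 h and 30.5 and 34.4 at 24 h. Mean levels of SEMA6B (36.3 at 6 h and 33.1 at 24 h) and SEMA3C (32.1 and 29.7) stood next to SEMA4B among the ligands at both times.

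**Figure D3:**
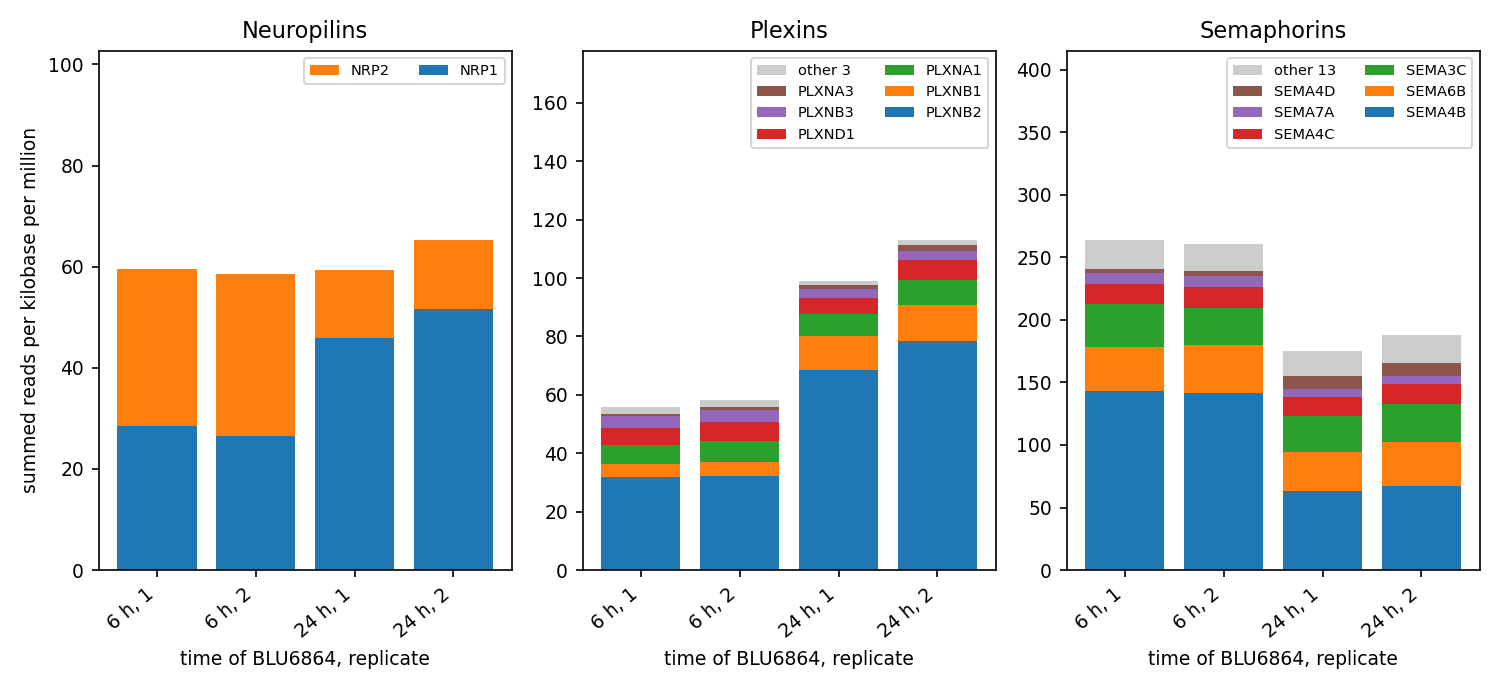
RPKM (reads per kilobase scaled by library size, y axis, linear) summed over the neuropilins, plexins, and semaphorins in each library (x axis), with the 6 genes of the highest sum in each class in color and the rest in gray. The neuropilin total stays between 58.5 and 65.2 while NRP1 takes a larger share at 24 h, the plexin total rises with PLXNB2, and the semaphorin total falls with SEMA4B.

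Members past the cutoffs spanned mean counts from that of SEMA4A, near the low end, to SEMA4B and PLXNB2. PLXNA1, PLXNB3, SEMA4F, and SEMA7A had an edgeR adjusted P under 0.05 but stayed within the fold cutoff. The share of all genes tested that did so was not counted.

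**Figure D4:**
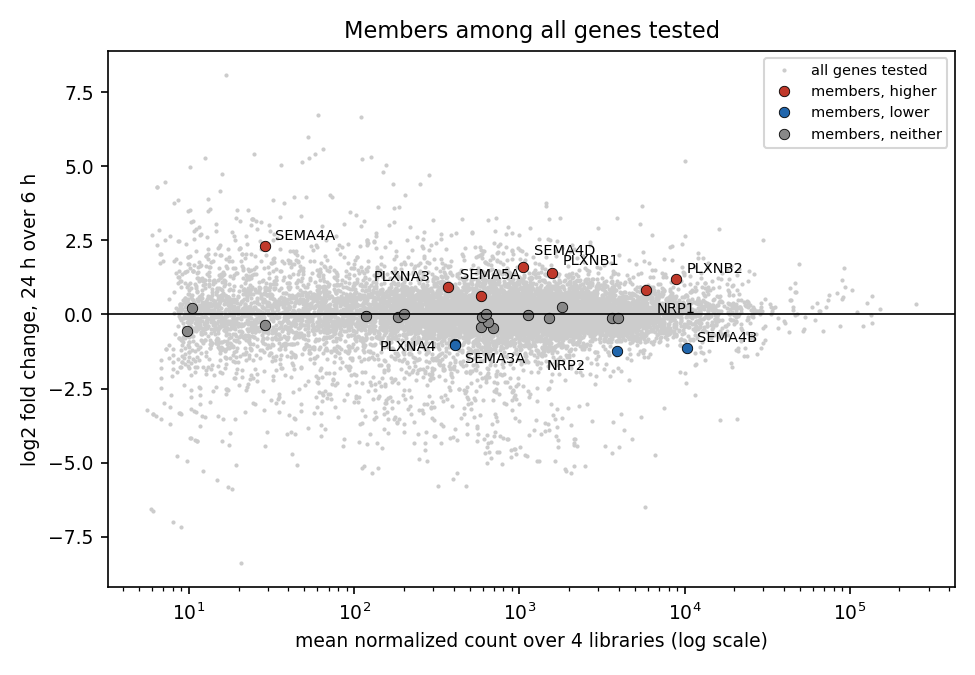
Log2 fold change, 24 h over 6 h (y axis), against the mean normalized count of the 4 libraries (x axis, log scale) for all 12876 genes tested (gray) and the 27 members (larger points; red higher, blue lower, dark gray neither). Named members lie inside the cloud of all genes at their level.

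Other genes of the pathway were counted from lists of 52 symbols, 51 of which are in the table and 41 of which were tested. Of these, 12 rose and 8 fell (edgeR, same cutoffs), with a median log2 fold change of 0.05. These are 29.3% and 19.5% of those tested, beside 17.4% and 17.7% of all genes.

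Among the intracellular effectors, 9 of 23 tested rose and 3 fell. These were 39.1% and 13.0%, beside 17.4% and 17.7% of all genes tested. FARP1, a guanine nucleotide exchange factor that binds class A plexins, had 1563 and 1618 normalized counts at 6 h and 6043 and 6795 at 24 h. This log2 fold change of 2.01 ± 0.078 (edgeR adjusted P = 3.6e-18) was the largest rise on the list. MRAS, an R-Ras family GTPase, rose by 1.26 on the log2 scale, and DPYSL2 and CRMP1, collapsin response mediators that act downstream of SEMA3A, rose by 0.90 and 0.84 on this scale. The related DPYSL3 fell from 12952 and 13297 normalized counts to 6185 and 6521 (log2 fold change -1.05, edgeR adjusted P = 2.26e-12). RND1, a small GTPase that binds plexins, fell with a log2 fold change of -1.41, and the kinase CDK5 with one of -0.55.

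Among the listed partners of plexins and neuropilins and other listed membrane proteins, 2 of 8 tested rose and 3 fell. These were 25.0% and 37.5%, beside 17.4% and 17.7% of all genes tested. KDR (VEGFR2), the VEGF receptor that neuropilins join, had 485 and 517 raw counts at 6 h and 44 and 22 at 24 h. This log2 fold change was -3.97 ± 0.172 (edgeR adjusted P = 4.83e-17), while FLT1 (VEGFR1) had 0 counts in all libraries. FLT4 (VEGFR3) had 19 and 25 raw counts at 6 h and 14 and 10 at 24 h and did not pass the cutoffs (log2 fold change -0.91, edgeR adjusted P = 0.0364). MET, a receptor kinase that couples to class B plexins, fell from 30329 and 27824 normalized counts to 13294 and 12999 (log2 fold change -1.15, edgeR adjusted P = 1.72e-12). ERBB2, which also couples to class B plexins, rose by 0.51 on the log2 scale, close to the fold cutoff. TIMD4, a T cell immunoglobulin and mucin family protein, rose by 0.87 on this scale, and ITGB1, a subunit of the SEMA7A receptor integrin, had a log2 fold change of -0.55 and fell.

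Of the VEGF ligands, 4 were tested. VEGFB rose by 0.54 on the log2 scale, and PGF had a log2 fold change of -1.13 and fell (edgeR adjusted P = 4.16e-10). Each direction held 25.0% of those tested, beside 17.4% higher and 17.7% lower among all genes. VEGFA and VEGFC were above their 6 h levels in both 24 h libraries. Their log2 fold changes of 0.38 and 0.498 were under the fold cutoff, VEGFC only just, while VEGFB was just over it. Of 6 proteases tested that cut semaphorins or their receptors, ADAM17 alone passed the cutoffs (16.7% lower, beside 17.7% of all genes). It fell from 6820.4 and 6507 normalized counts at 6 h to 3664 and 3529.6 at 24 h (log2 fold change -0.89, edgeR adjusted P = 2.47e-11).

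**Figure D5:**
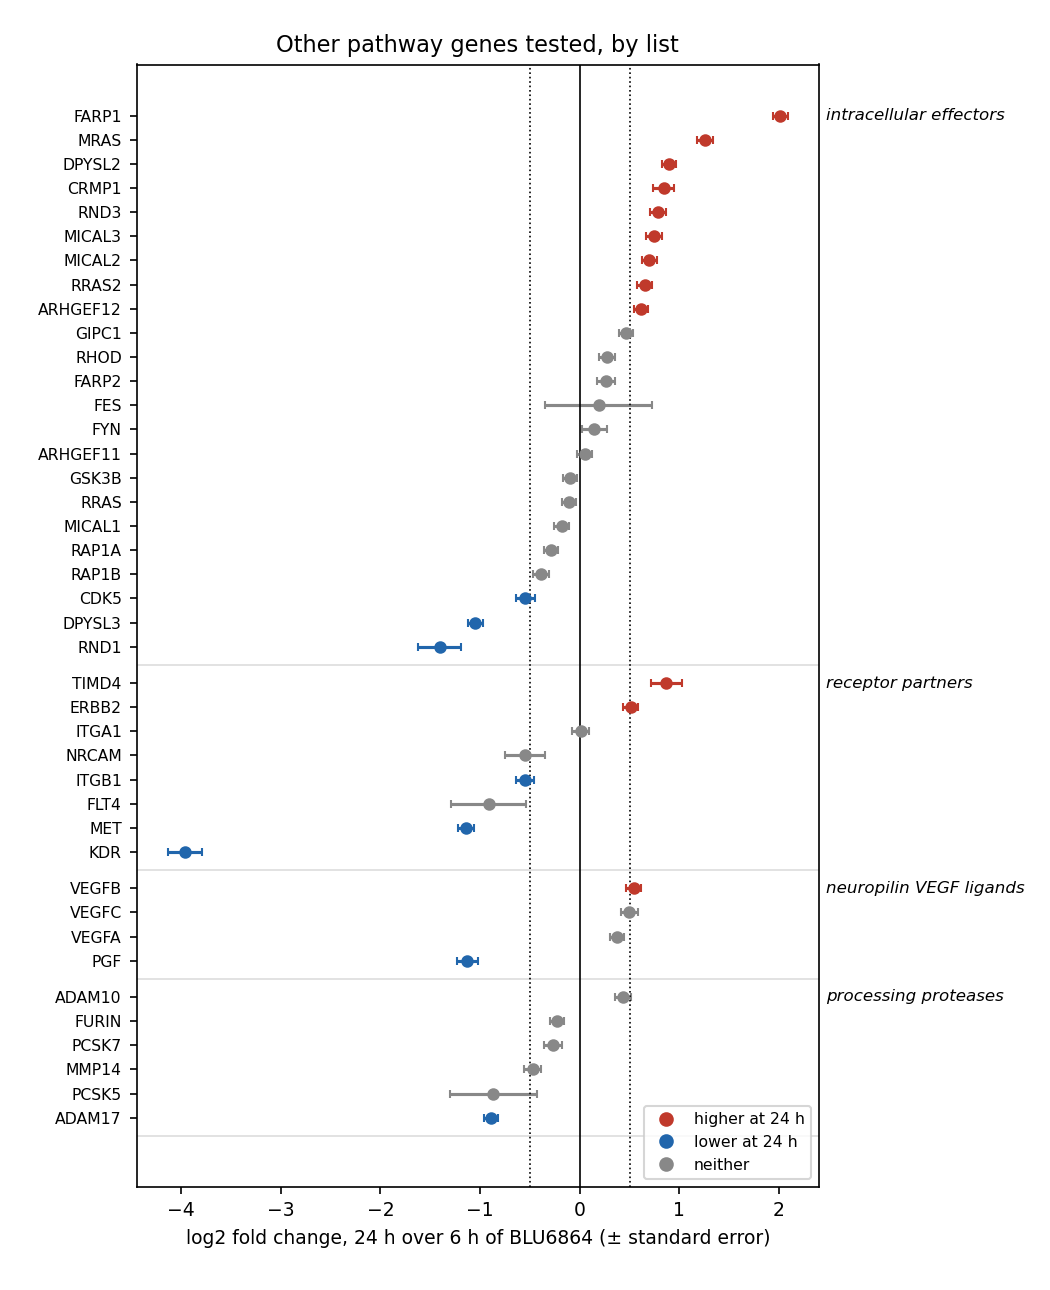
Log2 fold change, 24 h over 6 h of BLU6864 (x axis, bars are standard errors), for the 41 other pathway genes tested, by list (y axis), with dotted lines at the fold cutoff and red and blue points for genes higher or lower past the cutoffs. The effectors run from RND1 at -1.41 to FARP1 at 2.01, and KDR stands apart at -3.97.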

How the data were processed

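Per the labels, TPC1 libraries were made with the Illumina TruSeq RNA protocol and sequenced as 50 bp single-end reads, whereas the methods give longer paired-end reads. The submitters' processing notes name STAR 2.3 and hg19, and the methods name a later STAR release. The counting program, annotation, and strand setting are not given in the sources used here. The authors deposited raw counts per gene and a normalized signal per gene, the count divided by 1 DESeq2 size factor per library. They also deposited their own fold changes and P values, which were not used. No raw count column was left out. The raw counts were tested here, and the normalized signal was not needed.

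For all genes, raw counts entered the quasi-likelihood test of edgeR 4.0.16 in R 4.3.3 (filterByExpr, TMM, Benjamini-Hochberg adjustment over 12876 genes), with time as the only factor. The standard error follows from the fold change and its F statistic. Normalized counts are counts scaled by TMM library size. RPKM values used the longest protein-coding transcript in GENCODE 44, with all 30 members matched. Gene positions are those of the deposited table (hg19), and promoter sequences are from RefSeq (GRCh38.p14). The procedure was tested on simulated data.

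The members and lists were chosen with earlier results of these data known. Every member was described, and of each other list up to 4 genes past the cutoffs in each direction, those with the largest change, were named. Markers, overlapping genes, FLT1, FLT4, VEGFA, and VEGFC are named besides. VEGFD is listed under its older symbol FIGF, and PECAM1 was not used here. Some marker genes are not reported here. Alternatives were DESeq2 1.42.0, library size alone, upper quartile scaling, no low-count filter, at least 10 counts in every library, an adjusted P under 0.05, a replicate block, and omission of each single library. Class sums without SEMA4B or PLXNB2 were added after seeing the data.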

Additional observations from a re-analysis of the deposited data

How the results depend on the processing

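The counts of 7 members higher and 4 lower at 24 h were obtained under every alternative except the requirement of at least 10 counts in every library, which left 6 higher because SEMA4A was not tested, and each of the other 10 members past the cutoffs stayed past them on the same side. Deviations of same-numbered libraries were hardly correlated (0.0757), which cannot show whether the replicates were paired. With the replicate block the counts were 7 and 4. The P values of members past the cutoffs were smaller with the block, for NRP1 4.3e-36 against 4.6e-11 (edgeR, unadjusted). The block leaves little data per gene to measure the spread, which then rests on a value shared over genes. The smaller P values are therefore not stronger evidence. With library size alone, PLXNA2 was at -0.016 and SEMA6C at -0.025, and with upper quartile scaling PLXND1 was at 0.012, and library size alone called 2030 genes higher and 2499 lower in the whole table, against 2238 and 2278. The 12 and 8 other pathway genes past the cutoffs became 10 to 14 and 7 to 10 over all alternatives. Leaving out each library in turn, where the lone library is assumed to vary like the other group, gave a median member log2 fold change from -0.16 to 0.10, the highest without 24 h replicate 1. The same fits gave log2 fold changes from -0.070 to 0.13 for PLXNA2, -0.14 to 0.10 for PLXND1, -0.17 to 0.0087 for SEMA3F, -0.32 to 0.13 for SEMA4G, -0.27 to 0.59 for SEMA5B, -0.24 to 0.10 for SEMA6A, and -0.092 to 0.13 for SEMA6C, members that did not pass the cutoffs. With 2 libraries per time point, members with few counts (SEMA3G, SEMA5B, and PLXNC1) had wide intervals.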
